A study of Mus musculus with 15 samples.

Results

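Expression of 10 genes of the trophoblast programme, namely the AP-2 transcription factors *Tfap2a*, *Tfap2b* and *Tfap2c* and the trophoblast-associated genes *Gata2*, *Gata3*, *Elf5*, *Hand1*, *Gcm1*, *Krt7* and *Plac1*, was followed from naive ESCs to PGCLCs induced with transcription factors. The 10 genes were taken by name from the 55536 genes counted, each from 1 Ensembl identifier with a matching GENCODE M21 symbol. The study made PGCLCs, cultured counterparts of primordial germ cells, without cytokines. RNA-seq covered 15 samples in 5 groups of 3. All groups came from mouse ESCs with a *Stella*-eGFP reporter (*Stella* is *Dppa3*) and doxycycline (Dox)-inducible *Prdm1*, *Prdm14*, *Tfap2c* and *Nanog* transgenes, kept as clonal lines, so that control groups carried the same alleles. ESCs were grown in 2i and LIF, and EpiLCs, which are epiblast-like cells, were made from them over 48 h with Activin A at 20 ng/mL and bFGF. D2PGCLCs, D4PGCLCs and D6PGCLCs were the eGFP-positive cells on days 2, 4 and 6 after EpiLCs were aggregated in medium with Dox at 2 µg/mL. ESCs and EpiLCs were not exposed to Dox under this protocol. Counts per gene do not separate *Tfap2c* transgene reads from endogenous reads.

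AP-2 factors bind GC-rich DNA as dimers and act in trophectoderm, neural crest, skin and the germ line. *Tfap2c* has a place in both lineages considered here, since it is needed in trophoblast stem cells and is part of the core network that specifies primordial germ cells. In trophoblast it works beside GATA2, GATA3, ELF5 and EOMES, while HAND1 and GCM1 act as the cells differentiate into giant cells and syncytiotrophoblast. Keratin 7 marks trophoblast and other simple epithelia, and *Plac1* encodes a placental secreted protein.

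Gene counts summed to 22555021 to 42725681 per sample. D6PGCLC replicate 1 stood apart, with 18061 genes detected against 21103 to 24343 in the other 14 samples, and calls of the 10 genes that changed without it are given both ways. Summed CPM (counts scaled to library size after TMM normalization) of 6 naive ESC markers was 2380 to 2400 in ESCs and 797 to 918 in EpiLCs, and in PGCLCs it was 1970 to 2150 on day 2, 1700 to 2040 on day 4 and 1520 to 1860 on day 6, between EpiLCs and ESCs. That of 5 EpiLC markers was 2810 to 3050 in EpiLCs and at most 218 elsewhere. That of 7 germ cell markers was 856 to 1270 in PGCLCs and at most 286 elsewhere. *Dppa3*, 1 of these 7, drives the reporter used for sorting, and *Prdm1* and *Prdm14* have transgenes. The 6 naive markers include *Nanog*, which also has a transgene and averaged 841.5 CPM in D2PGCLCs. In D2PGCLCs relative to EpiLCs 4 of the 6 were called higher, against 11.0% of all genes tested. *Klf4* was called lower (-1.44), against 14.4%. Of the 4 genes with a transgene, *Tfap2c* was called higher in D2PGCLCs relative to EpiLCs, and the log2 fold changes of *Nanog* (0.63), *Prdm1* (0.57) and *Prdm14* (-0.05) were below the cutoff used here.

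Where the AP-2 recognition letters occur near the start sites of these genes was read from RefSeq promoter windows on GRCm38.p6, each from 250 bases before to 50 bases after a start site. Windows were found for 8 of the 10 genes, 12 windows in all, and *Tfap2c* and *Hand1* had none. The letters GCCNNNGGC, which read the same on both strands, are the AP-2 core, and AGATAA, searched on both strands, is the GATA core. The pair of motifs cannot occupy the same bases. The stretches of 29 bases below are shown because they hold the matches of *Gata3*, *Krt7* and *Gata2*, with the matching letters in capitals.
Gata3: cctctGCCCTAGGCgGCCCTTGGCggcgc
Krt7 distal: tggacgaagaGCCTTGGGCggcggctggg
Krt7 proximal: gagaaaggtgGCCAGCGGCcagccccgcc
Gata2: tgcagggtctGCCCACGGCgaaggtcccc

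The *Gata3* stretch lies at chr2:9878808-9878836 on the minus strand. Its matches begin 231 and 221 bases before the start site, and 1 more match, GCCCGCGGC, begins 246 bases before it. The *Krt7* stretches lie at chr15:101412247-101412275 and chr15:101412323-101412351 on the plus strand, with matches that begin 146 and 70 bases before the start site. The *Gata2* stretch, at chr6:88198432-88198460 on the plus strand, belongs to the second of the 2 *Gata2* windows, and its match begins 222 bases before that start site. No AP-2 core was found in the windows of *Tfap2a*, *Tfap2b*, *Elf5*, *Gcm1* or *Plac1*, and the single GATA core among the 12 windows was in a *Plac1* window, 246 bases before the start site. Of 32817 windows genome-wide, 16.6% held at least 1 AP-2 core, 2.8% at least 2 and 0.445% at least 3, and 11.18% held a GATA core. The windows with matches were rich in G and C (67.3% in *Gata3*, 66.3% in *Krt7* and 73.7% in *Gata2*, against a median of 52.67% genome-wide). Among the 6007 windows with at least 65% GC the shares with 1, 2 and 3 AP-2 cores were 41.3%, 11.1% and 2.2%. These are matches of letters and no binding was measured.

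**Figure D1:**
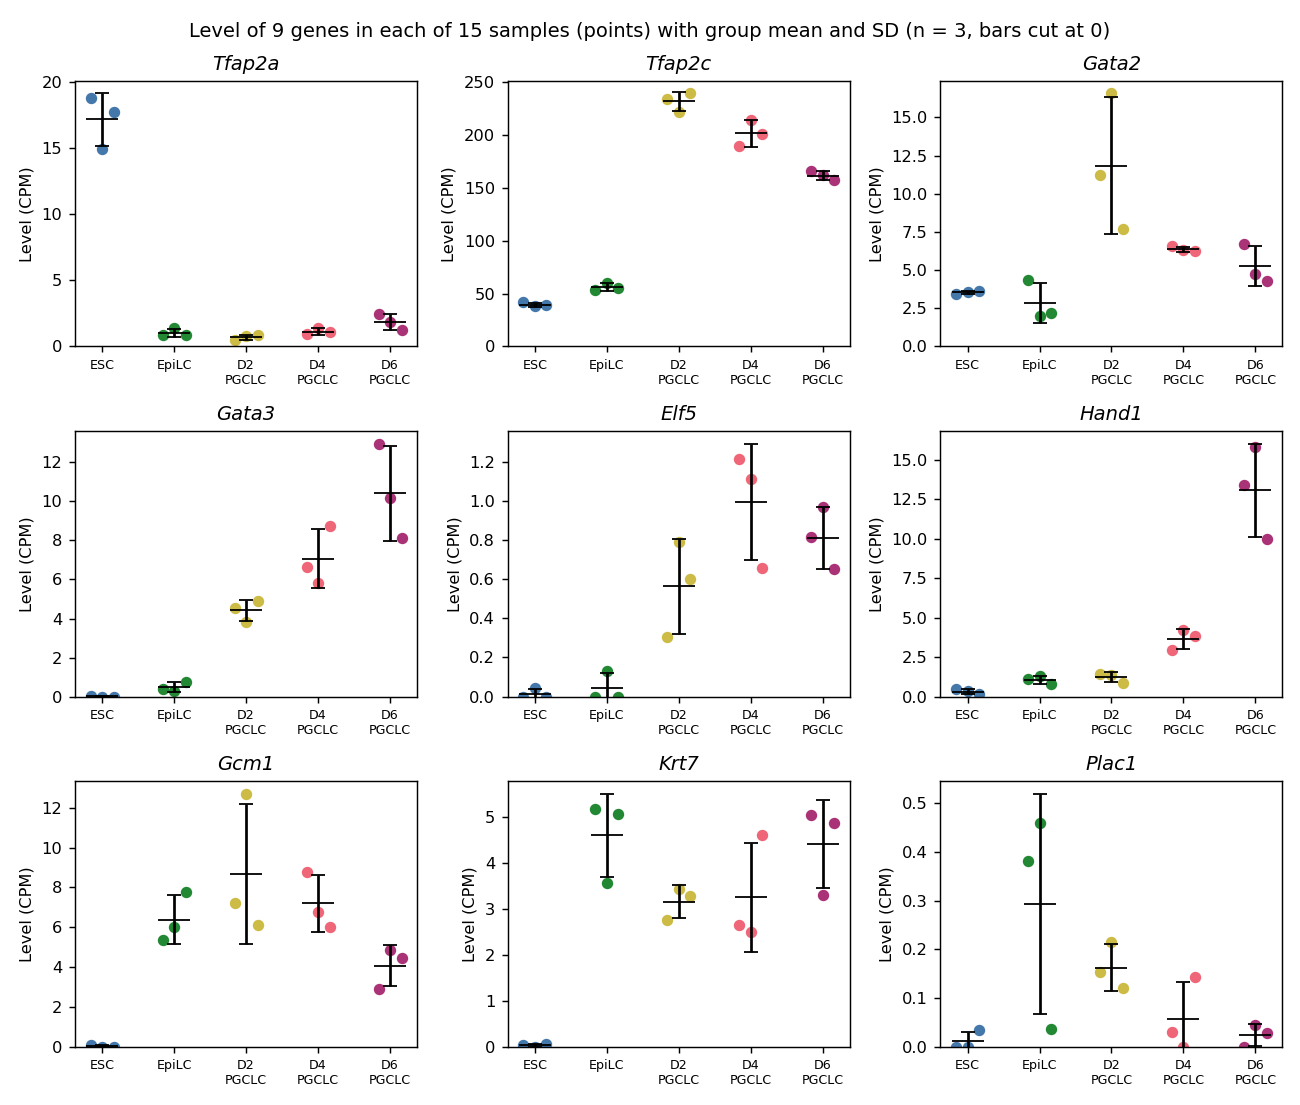
Level of 9 of the 10 genes (y axis, CPM, each panel on its own scale from 0) in ESCs, EpiLCs and PGCLCs of days 2, 4 and 6, with 1 point per sample and the mean and SD of the 3 samples in black. *Tfap2a* was highest in ESCs, *Tfap2c* and *Gata2* in D2PGCLCs, and *Gata3* and *Hand1* in D6PGCLCs, while *Tfap2b*, which had 1 count in 1 ESC sample, is not drawn.

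Among the AP-2 factors, *Tfap2c* (ENSMUSG00000028640, chr2:172549593-172558622 on mm10, plus strand) was by far the most expressed. ESC replicates 1 to 3 had 41.7, 37.9 and 39.2 CPM, and EpiLC replicates had 53, 60 and 55.3 CPM. D2PGCLCs had 234, 222 and 239 CPM, D4PGCLCs 190, 214 and 201 CPM, and D6PGCLCs 166, 162 and 157 CPM. No neighbouring groups in the order D2PGCLC, D4PGCLC, D6PGCLC, EpiLC and ESC overlapped. The mean rose from 56.1 ± 3.54 CPM in EpiLCs to 232 ± 8.87 CPM in D2PGCLCs (SD, n = 3). On the log2 scale this was a rise of 2.05 (adjusted p = 2.53e-13, standard error 0.08). Dox induced the *Tfap2c* transgene in PGCLCs and not in EpiLCs, so this rise was part of the design and may include transgene reads. Groups were compared by the quasi-likelihood test of edgeR with Benjamini-Hochberg adjustment, and a gene was called when its adjusted p was under 0.05 and its log2 fold change above 1 or below -1. The fold changes of *Tfap2c* between days were below that cutoff. In D6PGCLCs its level differed from that in D2PGCLCs by -0.52 on the log2 scale (adjusted p = 2.43e-05) and from that in D4PGCLCs by -0.32 (adjusted p = 0.00814). In EpiLCs it was higher than in ESCs by 0.50 (adjusted p = 1.87e-05), also below the cutoff and before Dox was added.

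*Tfap2a* (ENSMUSG00000021359, chr13:40715302-40738376, minus strand), which shares the AP-2 DNA-binding domain and acts in neural crest and surface ectoderm, went the other way on leaving the naive state. ESCs had 18.8, 14.9 and 17.7 CPM and EpiLCs 0.88, 1.38 and 0.844 CPM. D2PGCLCs had 0.46, 0.788 and 0.84 CPM, D4PGCLCs 0.909, 1.39 and 1.09 CPM, and D6PGCLCs 2.44, 1.83 and 1.25 CPM. Every ESC sample was above every other sample. *Tfap2a* fell by 4.04 on the log2 scale from ESCs to EpiLCs (standard error 0.29, adjusted p = 1.16e-09) and rose by 1.40 from D2PGCLCs to D6PGCLCs (standard error 0.30, adjusted p = 0.00131), while D6PGCLCs remained below ESCs, at -3.22 (adjusted p = 1.13e-08). The summed CPM of 5 neural crest markers, of which *Foxd3* had 0 counts in all samples, was at most 3.12 in any sample. That of 6 surface ectoderm markers ran from 29.6 to 32.3 among ESC samples and from 95.6 to 120 among EpiLC samples, and from 67.1 to 73.6, 37.8 to 51.1 and 38.6 to 38.9 on days 2, 4 and 6, and most of it came from *Grhl2* and *Grhl3*. Antisense genes overlap exons of *Tfap2a* over at most 380 bases each and had at most 25 counts in a sample, and whether counting used strand is not known. *Tfap2b* (ENSMUSG00000025927, chr1:19208914-19238576, plus strand), which acts in neural crest and kidney, had 1 count in ESC replicate 1 and 0 in the other 14 samples. That is under the 3 counts a sample with a count of 0 may still allow, so no fold is given. Neither *Tfap2b* nor *Plac1* passed the filter on low counts, so 8 of the 10 genes were tested among 18090. No stretch of 31 bases was shared between the transcripts of any pair of the 5 AP-2 genes.

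**Figure D2:**
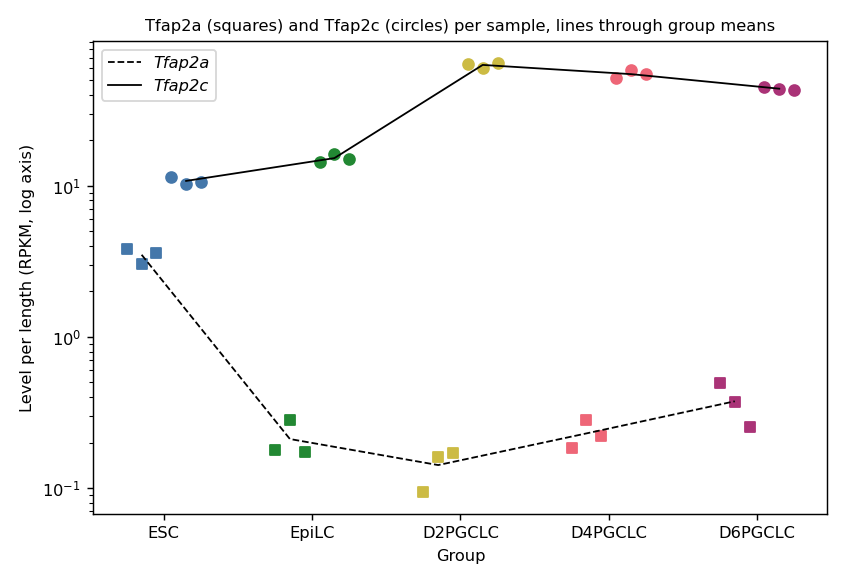
Level per exon length (y axis, RPKM, log axis) of *Tfap2a* (squares, dashed line) and *Tfap2c* (circles, solid line) in each sample of the 5 groups (x axis), with lines through group means. The distance between the lines widens from ESCs to D2PGCLCs and narrows towards D6PGCLCs, where the *Tfap2c* to *Tfap2a* ratio was 125 on average. In PGCLCs the *Tfap2c* level may include transgene reads.

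Per length, *Tfap2c* was the highest of the 3 AP-2 factors in every sample. Its mean was 10.8 RPKM (CPM per kilobase of exon) in ESCs and 63.1 RPKM in D2PGCLCs, against 3.50 and 0.142 RPKM for *Tfap2a*. The ratio of *Tfap2c* to *Tfap2a* per length averaged 3.1 ± 0.246 among ESC samples (SD, n = 3) and 75.1 ± 15.4 among EpiLC samples. It was 478 ± 174 on day 2, 243 ± 35.8 on day 4 and 125 ± 39.3 on day 6. In PGCLCs the *Tfap2c* counts may include transgene reads, so its RPKM and these ratios need not describe the endogenous gene. The 3 ESC ratios, from 2.95 to 3.38, lay below all others, while those of D4PGCLCs (206 to 278) lay between those of D6PGCLCs (90.3 to 168) and D2PGCLCs (376 to 680). Both other members of the family were low, with at most 1 count of *Tfap2d* and at most 16 counts of *Tfap2e* in a sample. *Tfap2e* had 34 counts over the EpiLC samples and 5 over the D2PGCLC samples. It was called lower than in EpiLCs in D2PGCLCs (-2.83, adjusted p = 0.0195) and in D6PGCLCs (-2.96).

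*Gata3* (ENSMUSG00000015619, chr2:9857078-9890034, minus strand), which acts in early trophectoderm and also in T cells, rose in steps. ESC replicates had 0.0365, 0 and 0 CPM, from 1 count in all, and EpiLC replicates had 0.383, 0.296 and 0.771 CPM. D2PGCLCs had 4.54, 3.83 and 4.89 CPM, D4PGCLCs 6.64, 5.84 and 8.73 CPM, and D6PGCLCs 12.9, 10.2 and 8.13 CPM. Every PGCLC sample lay above every EpiLC sample, and only D4PGCLCs and D6PGCLCs overlapped. The log2 fold change from EpiLCs to D2PGCLCs was 3.20 (standard error 0.33, adjusted p = 1.44e-07), and from D2PGCLCs to D6PGCLCs it was 1.23 (standard error 0.26, adjusted p = 0.000964). From D2PGCLCs to D4PGCLCs (0.68, adjusted p = 0.0947) and from D4PGCLCs to D6PGCLCs (0.56, adjusted p = 0.154) it did not pass the test. EpiLCs were called higher than ESCs (adjusted p = 4.14e-05), with a ratio of summed CPM of 38.2 and a 95% interval of 6.48 to 1550. For D6PGCLCs over ESCs the ratio was 837 (150 to 33100). Intervals of this kind cover counting error only. An antisense gene over 155 bases of *Gata3* exons had at most 18 counts in a sample.

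*Gata2* (ENSMUSG00000015053, chr6:88193891-88207032, plus strand), a factor of blood progenitors and trophoblast, peaked on day 2. It had 3.47, 3.55 and 3.65 CPM in ESCs and 4.36, 1.97 and 2.2 CPM in EpiLCs. D2PGCLCs had 11.2, 16.6 and 7.68 CPM, D4PGCLCs 6.55, 6.33 and 6.24 CPM, and D6PGCLCs 6.73, 4.78 and 4.28 CPM. The D2PGCLC samples lay above all others but were spread widely, with replicate 2 the highest. *Gata2* rose by 2.06 on the log2 scale from EpiLCs to D2PGCLCs (standard error 0.29, adjusted p = 8.88e-06) and fell by 1.17 from D2PGCLCs to D6PGCLCs (standard error 0.28, adjusted p = 0.00274). The call of this fall, though not its direction, rested on D2PGCLC replicate 2. Without that sample the log2 fold change was -0.85 (adjusted p = 0.0235), short of the cutoff on fold change. Of 7 endothelial and blood markers 5 were tested, and in D2PGCLCs relative to EpiLCs 1 was called higher (*Cdh5*) and 2 lower (*Tal1* and *Gata1*). The summed CPM of the 7 was almost all from *Pecam1*, so it is not given. For *Gata2*, D4PGCLCs differed from D2PGCLCs by -0.89 (adjusted p = 0.0413), short of the cutoff, and D6PGCLCs from EpiLCs by 0.89 (adjusted p = 0.0135).

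*Elf5* (ENSMUSG00000027186, chr2:103411688-103450989, plus strand), which maintains trophoblast stem cells and mammary alveolar cells, was low in every group. ESCs had 1 count and EpiLCs 4 counts over the 3 samples. D2PGCLCs had 0.306, 0.788 and 0.6 CPM, D4PGCLCs 1.21, 1.11 and 0.659 CPM, and D6PGCLCs 0.815, 0.969 and 0.652 CPM, from 10 to 44 counts per sample. Every PGCLC sample was above every ESC and EpiLC sample, and the 3 days of PGCLCs overlapped. The log2 fold change from EpiLCs was 3.48 in D2PGCLCs (standard error 0.87, adjusted p = 0.00236) and 4.01 in D6PGCLCs (standard error 0.85, adjusted p = 0.000535). The 4 EpiLC counts all came from replicate 2. Without that sample EpiLCs had no count, and *Elf5* was still called higher in both comparisons, with fitted values of 7.18 and 7.71 that depend on the prior count of the fit.

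*Hand1* (ENSMUSG00000037335, chr11:57828705-57832818, minus strand), which drives giant cell differentiation and is also used in extraembryonic mesoderm and heart, rose at each step but 1. ESCs had 0.474, 0.351 and 0.134 CPM, EpiLCs 1.11, 1.31 and 0.807 CPM, and D2PGCLCs 1.44, 1.4 and 0.87 CPM. D4PGCLCs had 2.94, 4.22 and 3.81 CPM and D6PGCLCs 13.4, 15.8 and 9.98 CPM. The ranges of EpiLCs and D2PGCLCs overlapped, and no other neighbouring groups did. The log2 fold change was 1.77 from ESCs to EpiLCs (adjusted p = 0.000938), 0.19 from EpiLCs to D2PGCLCs (adjusted p = 0.652), 1.57 from D2PGCLCs to D4PGCLCs (adjusted p = 0.00215) and 1.84 from D4PGCLCs to D6PGCLCs (adjusted p = 0.000279). From D2PGCLCs to D6PGCLCs it was 3.40 (standard error 0.30, adjusted p = 1.38e-07), and from EpiLCs to D6PGCLCs 3.59 (standard error 0.30, adjusted p = 1.1e-08).

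The summed CPM of 6 primitive endoderm markers rose from D2PGCLCs to D6PGCLCs, as *Hand1* and *Gata3* did. The sum was 7.3 to 8.46 in ESCs and 11.3 to 13.4 in EpiLCs. In PGCLCs it was 7.02 to 8.06 on day 2, 8.41 to 13.1 on day 4 and 19.9 to 30.9 on day 6. From EpiLCs to D2PGCLCs the sum fell while *Gata3* rose. None of the 6 was at 0 in a whole group. From D2PGCLCs to D6PGCLCs 5 of these 6 genes were called higher, against 10.9% of all genes tested. The level of *Gata6*, a primitive endoderm factor, was 0.398, 0.215 and 0.12 CPM in D2PGCLCs and 14.1, 5.66 and 7.99 CPM in D6PGCLCs. The summed CPM of 6 mesoderm markers was at most 1.39 in D6PGCLCs. In RNA from bulk samples a larger number of cells of one type and more RNA per cell cannot be told apart, and the part of other cells in these levels was not tested.

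*Gcm1* (ENSMUSG00000023333, chr9:78051924-78065624, plus strand), the switch for syncytiotrophoblast and labyrinth branching, had 2 counts over the 3 ESC samples and was measured in all other samples. EpiLCs had 5.36, 6.02 and 7.78 CPM and D2PGCLCs 7.23, 12.7 and 6.12 CPM. D4PGCLCs had 8.79, 6.78 and 6.01 CPM and D6PGCLCs 2.89, 4.87 and 4.48 CPM. D6PGCLC samples lay below every EpiLC, D2PGCLC and D4PGCLC sample. EpiLCs were called higher than ESCs (adjusted p = 1.66e-09), with a ratio of 256 and a 95% interval of 70.4 to 2120. *Gcm1* fell by 1.08 on the log2 scale from D2PGCLCs to D6PGCLCs (standard error 0.29, adjusted p = 0.00609). Without D2PGCLC replicate 2, the highest sample, the log2 fold change was -0.71 (adjusted p = 0.0578), and without D6PGCLC replicate 1, the lowest of its group, it was -0.88 (adjusted p = 0.0296). The call was lost in both cases.

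*Krt7* (ENSMUSG00000023039, chr15:101411043-101430313, plus strand), the keratin, came up in EpiLCs, and no later step was called. ESCs had 3 counts in all. EpiLCs had 5.17, 3.55 and 5.06 CPM, D2PGCLCs 2.76, 3.44 and 3.27 CPM, D4PGCLCs 2.64, 2.5 and 4.61 CPM, and D6PGCLCs 5.04, 3.3 and 4.88 CPM. All 4 later groups lay above ESCs, D2PGCLCs lay just below EpiLCs, and D6PGCLCs overlapped with EpiLCs. EpiLCs were called higher than ESCs (adjusted p = 1.6e-09), with a ratio of 121 (41.2 to 591). D6PGCLCs differed from EpiLCs by a log2 fold change of -0.06 with a standard error of 0.28 (adjusted p = 0.867).

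*Plac1* (ENSMUSG00000061082, chrX:53069995-53240111, minus strand), the placental gene, was counted at most 14 times in a sample. EpiLCs had 10, 14 and 1 counts, D2PGCLCs 5, 6 and 4, D4PGCLCs 1, 0 and 5, D6PGCLCs 0, 2 and 1, and ESCs 0, 0 and 1. It was highest in EpiLCs on average, although EpiLC replicate 3, at 0.0367 CPM, was within the ranges of D4PGCLCs and D6PGCLCs. The ratio of summed CPM in EpiLCs over D6PGCLCs was 11.8 with a 95% interval of 3.6 to 61.1, and that of D2PGCLCs over D6PGCLCs was 6.33 (1.79 to 34.1).

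**Figure D3:**
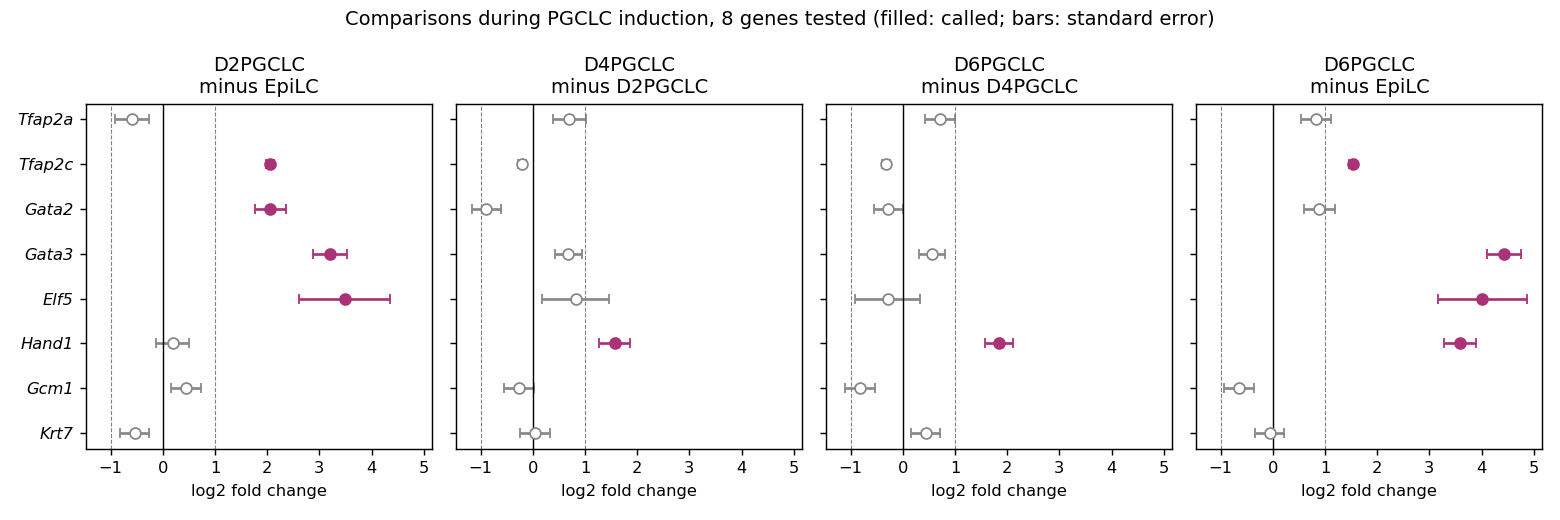
Log2 fold change (x axes) with its standard error for the 8 genes tested (rows) in 4 comparisons, with filled symbols for genes called and dashed lines at the cutoffs of -1 and 1. In D2PGCLCs relative to EpiLCs *Tfap2c*, *Gata2*, *Gata3* and *Elf5* were called, at 2.05 to 3.48, and in both later steps *Hand1* was the only one of the 8 called.

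Counted over the set, 4 of the 8 genes tested were called higher in EpiLCs than in ESCs (*Gata3*, *Hand1*, *Gcm1* and *Krt7*), against 14.4% of all genes tested, and 1 was called lower (*Tfap2a*), against 11.9%. *Gata3*, *Gcm1* and *Krt7* had at most 3 counts over the ESC samples and passed the filter on low counts only through later groups. The share called higher than in ESCs is therefore no result about the set. In D2PGCLCs relative to EpiLCs 4 were higher (*Tfap2c*, *Gata2*, *Gata3* and *Elf5*), against 11.0%, and none lower, against 14.4%. The median log2 fold change of the 8 was 1.24, against 0.003 over all genes tested. *Tfap2c*, which counts in this share and median, was induced with Dox through its transgene, so its rise was part of the design. *Gata3* and *Elf5* passed the filter on low counts only through PGCLCs. The share called higher and the median are therefore no result about the set. In D4PGCLCs relative to D2PGCLCs 1 was higher (*Hand1*), against 2.56%, and none lower, against 0.376%, with medians of 0.36 and 0.018. In D6PGCLCs relative to D4PGCLCs it was again *Hand1*, against 2.29%, with none lower, against 0.785%, and medians of 0.08 and -0.013. The p-values measure only the spread between these samples, since the labels do not say whether replicates were separate cultures.

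Over longer spans, D6PGCLCs had 3 of the 8 higher than in D2PGCLCs (*Tfap2a*, *Gata3* and *Hand1*), against 10.9%, and 2 lower (*Gata2* and *Gcm1*), against 2.75%. Relative to EpiLCs 4 were higher (*Tfap2c*, *Gata3*, *Elf5* and *Hand1*), against 15.9%, and none lower, against 12.0%, with a median of 1.21 against 0.034. These calls again include Dox-induced *Tfap2c*, and *Gata3* and *Elf5*, which passed the filter only through PGCLCs. The share higher than in EpiLCs and its median are likewise no result about the set. Relative to ESCs 6 were higher, against 15.8%, and 1 lower (*Tfap2a*), against 10.3%, and *Gata2* was the gene not called. Without D6PGCLC replicate 1 the higher calls numbered 3, 4 and 6 in these comparisons, with the same genes called, while *Gcm1* was no longer lower than in D2PGCLCs and *Plac1*, which then passed the filter, was lower than in EpiLCs. No median is given against ESCs, where *Gata3*, *Elf5*, *Gcm1* and *Krt7* had at most 3 counts over the group. These genes passed the filter on low counts only through later groups, so the share higher than in ESCs is no result about the set. Comparisons that share EpiLCs, D2PGCLCs or D6PGCLCs are not independent of each other.

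Compared per length at their highest group mean, *Tfap2c* (63.1 RPKM in D2PGCLCs) stood far above the other 9 genes. That level may include transgene reads, and in EpiLCs, without Dox, its mean was 15.2 RPKM. *Hand1* reached 6.55 RPKM in D6PGCLCs, *Gcm1* 4.20 RPKM in D2PGCLCs, *Tfap2a* 3.50 RPKM in ESCs, *Gata3* 2.62 RPKM in D6PGCLCs and *Gata2* 2.19 RPKM in D2PGCLCs. *Krt7* reached 0.652 RPKM and *Plac1* 0.210 RPKM, both in EpiLCs, and *Elf5* 0.169 RPKM in D4PGCLCs.

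Of 7 genes that mark differentiated trophoblast, 5 were not detected. *Tpbpa* of spongiotrophoblast, *Prl3d1*, *Prl3b1* and *Prl2c2* of giant cells and *Synb* of syncytiotrophoblast had 0 counts in all 15 samples, which allows up to 3 counts in each, and *Ctsq* had 1 count in 1 EpiLC sample. *Prl2c2* belongs to a group of near-identical copies, so reads that match several copies may not have been counted. The seventh marker, *Syna*, brought the summed CPM of this list to at most 0.888 in any sample and to at most 0.394 in D6PGCLCs. *Cdx2*, the trophectoderm determinant, was at 0.398, 0.323 and 0.15 CPM in D2PGCLCs and 0.342, 0.11 and 0.198 CPM in D6PGCLCs. All 6 D2PGCLC and D6PGCLC values were lower than the 1.64 to 2.65 CPM of ESCs.

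Of 9 regulators of trophoblast stem cells, 4 were called higher in D2PGCLCs than in EpiLCs and none lower, against 11.0% and 14.4% of all genes tested. These were *Esrrb* (3.21), *Klf5* (2.80), *Tead4* (2.33) and *Eomes* (1.47, log2 fold changes). The first 2 are also part of the naive pluripotency network and *Tead4* is the effector of Hippo signalling in trophectoderm. In D6PGCLCs relative to EpiLCs the same 4 were higher, against 15.9%, and *Fgfr2* (-1.21), the FGF4 receptor of trophoblast stem cells, and *Cdx2* (-1.42) were lower, against 12.0%. The 4 genes had been called lower in EpiLCs than in ESCs (*Esrrb* -3.14, *Klf5* -3.19, *Tead4* -3.12 and *Eomes* -1.66), and in D6PGCLCs relative to ESCs the median of the list was -0.16, against -0.002 over all genes. The median of the 9 was 0.81 in D2PGCLCs and 0.48 in D6PGCLCs, against 0.003 and 0.034 over all genes.

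Relative to EpiLCs, the tested genes of the labyrinth, spongiotrophoblast and giant cell lists were lower or not called. *Hand1*, which also acts in giant cells but is not on these lists, was called higher in D6PGCLCs (3.59). In D2PGCLCs relative to EpiLCs no gene of the labyrinth, spongiotrophoblast and giant cell lists was called higher, and 4 of the 7, 2 of the 3 and 2 of the 2 tested were called lower, against 11.0% higher and 14.4% lower over all genes tested. Among them were *Phlda2* (-3.23), an imprinted regulator of placental growth, *Slc16a3* (-3.03), a lactate transporter, *Cebpa* (-2.86), *Ascl2* (-2.63) and *Bhlhe40* (-1.80). The labyrinth gene *Syna* (-1.91), also called lower, passed the filter on low counts only through EpiLCs, which limits the labyrinth share. In D6PGCLCs 3 of 7, 3 of 3 and 0 of 2 were lower than in EpiLCs, against 12.0%, and none was higher, against 15.9%. Without D6PGCLC replicate 1 the labyrinth genes called lower numbered 5 in place of 3. Some of these genes had been called higher in EpiLCs than in ESCs, among them *Phlda2* (2.31) and *Ascl2* (2.17). Within the PGCLC days *Cebpa* was higher in D4PGCLCs (1.76) and D6PGCLCs (2.83) than in D2PGCLCs, and *Ascl2* in D6PGCLCs (1.24). The placenta-expressed genes *Plac8* (-2.52) and *Peg10* (-1.01), an imprinted retrotransposon-derived gene, were lower in D2PGCLCs than in EpiLCs, and also in D6PGCLCs (-5.43 and -1.60). All 3 simple-epithelium keratins were lower in D2PGCLCs than in EpiLCs (*Krt19* -3.27, *Krt8* -1.99 and *Krt18* -1.68), whereas the log2 fold change of *Krt7* was -0.54 (adjusted p = 0.118). The difference between *Krt7* and these keratins was not tested.

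**Figure D4:**
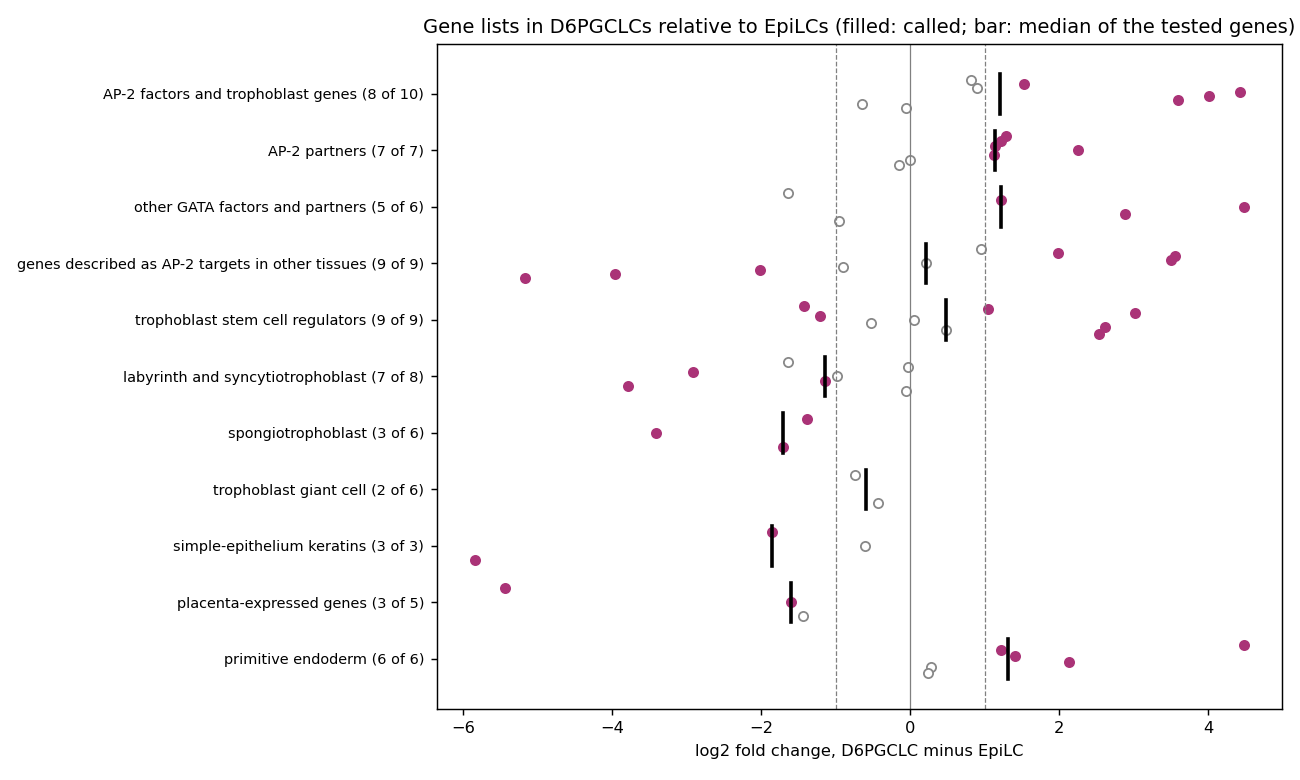
Log2 fold change in D6PGCLCs relative to EpiLCs (x axis) of the genes of 11 lists (rows, with the number tested of the number listed), with filled points for genes called, open points for the others and a black bar at the median of those tested. The AP-2 and trophoblast genes, the AP-2 partners and the primitive endoderm list have medians of 1.21, 1.13 and 1.31, and the labyrinth, spongiotrophoblast and keratin lists have medians of -1.15, -1.71 and -1.85. The AP-2 and trophoblast genes include Dox-induced *Tfap2c*, and *Gata3* and *Elf5*, which passed the filter on low counts only through PGCLCs.

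Of 7 partners of AP-2 proteins, 3 were called higher in D2PGCLCs than in EpiLCs, against 11.0% of all genes tested, and none lower, against 14.4%, with *Kctd15* (1.59), whose product represses AP-2 activity, *Cited4* (1.34), a coactivator, and *Kctd1* (1.19), a repressor. In D6PGCLCs 5 were higher, against 15.9%, led by *Kctd1* (2.25), *Cited1* (1.29) and *Cited2* (1.22), the last another coactivator. *Ep300* and *Crebbp*, the acetyltransferases that CITED proteins recruit, were at 0.00 and -0.16 in D6PGCLCs (adjusted p = 0.978 and 0.238). Of 9 genes described as AP-2 targets in other tissues, 3 were higher in D2PGCLCs than in EpiLCs, against 11.0%, namely *Kit* (3.46), the stem cell factor receptor of germ cells, *Esr1* (3.11) and *Erbb3* (2.40), and 5 were lower, against 14.4%, among them *Mmp2* (-5.09), *Igfbp5* (-2.12) and *Krt14*, which went from 31 to 47 counts per sample in EpiLCs to 1 count in all in D2PGCLCs. In D6PGCLCs 3 were higher and 3 lower, against 15.9% and 12.0%. Of the 9 genes, *Esr1* passed the filter on low counts only through PGCLCs and *Krt14* only through EpiLCs, which limits these shares.

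Among the other GATA factors and their partners, 3 of the 5 tested were higher in D6PGCLCs than in EpiLCs, against 15.9% of all genes tested, and none lower, against 12.0%. *Gata6* had the largest log2 fold change (4.48, standard error 0.49), followed by *Zfpm1*, which encodes the GATA cofactor FOG1 (2.88), and *Gata4* (1.21). In D2PGCLCs *Zfpm1* (1.19) was the 1 gene of the list called higher than in EpiLCs, against 11.0%, and *Gata1* (-3.63) and *Zfpm2* (-1.98) were lower, against 14.4%.

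The genes whose levels were most like those of *Gata3*, *Tfap2c* and *Tfap2a* were ranked by Pearson's r of log2(CPM + 1) over the 15 samples, which share 5 groups, among 11834 protein-coding genes. For *Gata3* they were *Pdk4* (r = 0.9885), *Psap*, *Mgll*, *Fam43a* and *8030474K03Rik*. *Pdk4*, a kinase that inhibits pyruvate dehydrogenase, had 1.46 CPM in ESCs, 2.06 CPM in EpiLCs and 12.1, 19.9 and 28.1 CPM on days 2, 4 and 6. For *Tfap2c* they were *Ank3* (r = 0.9918), *Igf1*, *Eif4g3*, *Cnn2* and *Phf19*. *Phf19*, a subunit associated with Polycomb repressive complex 2, went from 20.6 CPM in EpiLCs to 246 CPM in D2PGCLCs and 102 CPM in D6PGCLCs. For *Tfap2a* they were *Il34* (r = 0.9934), *Wnt5b*, *Mfn1*, *Fzd5* and *Slc18b1*, and *Il34*, a ligand of the CSF1 receptor, had 14.6 CPM in ESCs and 0.788 CPM in EpiLCs. With Spearman's correlation 0, 0 and 1 of these 5 genes were again among the first 5 for *Gata3*, *Tfap2c* and *Tfap2a*, and without D6PGCLC replicate 1 the numbers were 3, 3 and 1, so the names depend on the measure and on that sample.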

How the data were processed

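The authors purified RNA with TRIzol, made NEBNext Ultra II Directional libraries and deposited, for each Ensembl gene, raw counts that had not been normalized. The submitters' processing notes name Trim Galore, FastQC, STAR and mm10. The counting tool, the annotation release and the strand setting of the counting are not given in the sources used here. All 55536 identifiers matched GENCODE M21, the source of symbols, coordinates and exon lengths. Samples were grouped by their labels. Over 15 pairs of replicates the chi-square per gene was 8.82 to 44.6, above counting error.

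Counts were tested with edgeR 4.0.16 in R 4.3.3, using TMM normalization, filterByExpr with a minimum count of 10, a single quasi-likelihood model of the 15 samples with group as the only term, and Benjamini-Hochberg adjusted p-values from the 18090 genes in each of 7 comparisons. The method was tested on simulated data. CPM and RPKM used TMM library sizes. Where a group had 1 to 3 counts in all, the ratio of summed CPM is given with an exact 95% interval for counting error. Higher and lower calls among the 10 genes are counted in every comparison, and values of genes not called are given for some. Other genes named were up to 3 called genes per list with the largest absolute log2 fold change in D2PGCLCs or D6PGCLCs relative to EpiLCs, genes used to check labels, and the 5 genes most like *Gata3*, *Tfap2c* and *Tfap2a* with a mean of at least 100 counts in their highest group. *Eomes*, *Erbb3*, *Igfbp5*, *Fgfr2*, *Cdx2*, *Ep300* and *Crebbp* were named after their values were seen. The genes and lists were chosen with earlier results of these data known.

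Replicate numbers come from the labels. Same-numbered samples deviated together between D2PGCLCs and D4PGCLCs (correlations of 0.255 to 0.299), and in no other comparison was every correlation above 0.1. The tests in the Results had group as the only term and were not paired, there too, and the replicate block was an alternative. Alternatives were DESeq2 1.42.0, its size factors in edgeR, no filter, no fold-change cutoff, the replicate block, only the samples compared, and each sample left out.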

Additional observations from a re-analysis of the deposited data

How the results depend on the processing

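Of 613 recomputed log2 fold changes of single genes, 597 kept their direction and side of the threshold, 8 changed direction, 5 passed the threshold only under the alternative and 3 no longer passed it. The 3 lost calls were the falls of *Gata2* and *Gcm1* from D2PGCLCs to D6PGCLCs, and the cause was not tested. All 8 reversals were of values near 0 or from few counts that no fit called. *Elf5* in EpiLCs relative to ESCs turned to -2.07 without EpiLC replicate 2, which held its 4 EpiLC counts, and ranged up to 3.72 with other samples left out. *Krt7* in D4PGCLCs relative to D2PGCLCs turned to -0.04 without D2PGCLC replicate 1, to -0.29 without D4PGCLC replicate 3 and to -0.0023 with the replicate block, and ranged up to 0.20. *Gcm1* in the same comparison turned to 0.11 without D2PGCLC replicate 2 and ranged down to -0.47. *Krt7* in D6PGCLCs relative to EpiLCs turned to 0.04 without EpiLC replicate 1, 0.02 without EpiLC replicate 3 and 0.11 without D6PGCLC replicate 2, and ranged down to -0.21. The 5 gained calls were in *Gata2* and *Tfap2a*. *Gata2* was called in D6PGCLCs relative to EpiLCs without EpiLC replicate 1 (1.34) or D6PGCLC replicate 3 (1.02), and *Tfap2a* without EpiLC replicate 2 (1.10) or D6PGCLC replicate 3 (1.03). Without D2PGCLC replicate 3, *Gata2* was called lower in D4PGCLCs than in D2PGCLCs (-1.12).

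For the 10 genes, the counts called higher stayed within 1.5 times under every alternative. In the lists of related genes and markers, leaving out D6PGCLC replicate 1, an alternative chosen after seeing the data, moved 16 counts by more, such as the other GATA factors higher in D6PGCLCs than in D2PGCLCs (3 to 5) and the labyrinth genes lower than in EpiLCs (3 to 5). With no fold-change cutoff the lower calls went from 0 to 1 in D4PGCLCs relative to D2PGCLCs (*Gata2*) and from 0 to 1 in D6PGCLCs relative to D4PGCLCs (*Tfap2c*). DESeq2 gave 1 lower call in D6PGCLCs relative to EpiLCs (*Plac1*) in place of 0. With single samples left out, the lower calls ranged from 0 to 1 in D4PGCLCs relative to D2PGCLCs, 0 to 2 in D6PGCLCs relative to D2PGCLCs and 0 to 1 in D6PGCLCs relative to EpiLCs. The replicate block changed no call, and *Hand1* in D4PGCLCs relative to D2PGCLCs was 1.60 with it (adjusted p = 0.000646). Depth limits *Tfap2b*, *Plac1* and *Elf5*, and the ESC levels of *Gata3*, *Gcm1* and *Krt7*, to counts too low for a precise fold.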

Other observations

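Of 15 genes of the labyrinth, spongiotrophoblast, giant cell and placenta lists that were tested, 6 had their highest level in replicate 2 on all 3 days of PGCLCs (*Bhlhe40*, *Flt1*, *Peg10*, *Slc16a1*, *Slc16a3* and *Tfeb*), against 8.45% of all genes tested. The order was noticed before it was counted, and the 3 genes described here were picked after their values were seen. The level of *Slc16a3*, the lactate transporter, was 26.6, 138.6 and 10.2 CPM in D2PGCLC replicates 1 to 3, 31.2, 140.9 and 6.24 CPM in D4PGCLCs and 20.6, 77.2 and 4.20 CPM in D6PGCLCs, against 449.9 to 492.5 CPM in EpiLCs. *Peg10* was at 222.3, 366 and 180.9 CPM in D2PGCLCs, 130.5, 235.6 and 92.4 CPM in D4PGCLCs and 130.6, 272.3 and 106.2 CPM in D6PGCLCs. *Bhlhe40*, a factor that responds to hypoxia, was at 9.19, 22.3 and 6.06 CPM in D2PGCLCs, 15.8, 39.6 and 9.79 CPM in D4PGCLCs and 25.1, 32.3 and 20.0 CPM in D6PGCLCs. *Gata2* and *Gcm1* were also highest in replicate 2 among D2PGCLCs but not among D4PGCLCs, where replicate 1 was the highest for both genes.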
